A study of Mus musculus with 2 samples.

Results

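The S100 genes encode small calcium-binding proteins, and 9 of them are described here across the cell types of the aortic arch in mice on 2 diets. The 9 genes were S100a1, S100a4, S100a6, S100a8, S100a9, S100a10, S100a11, S100a13 and S100a16, taken by symbol from the 31053 genes listed in the gene tables, and each symbol matched 1 row. All mice were male Apoe-/- C57BL/6 mice of 16 weeks, which lack apolipoprotein E and accumulate cholesterol-rich lipoproteins in plasma. The ND group received a normal chow diet and the HFD group a high-fat and high-cholesterol diet from weaning on. Cells of 2 aortas were pooled in each group after enzymatic digestion and sequenced as 1 droplet library. With 1 library for each diet there are no replicates, so diet and library cannot be told apart and no test between the diets was made. Intervals cover counting error only and are exact 95% intervals. Both groups carried the Apoe deletion, so no library came from a wild-type vessel.

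S100 proteins have a pair of EF-hand calcium-binding motifs and mostly act as dimers. On binding calcium they expose a surface that takes hold of partner proteins, among them the annexins, which bind membranes, and Ahnak, a very large scaffold protein under the plasma membrane. S100a8 and S100a9 together form calprotectin, an abundant protein of the neutrophil cytosol that also acts outside the cell as a damage signal through Toll-like receptor 4 (Tlr4) and the receptor for advanced glycation end products (Ager). In the artery wall, S100 proteins are known as markers of incoming leukocytes, of activated fibroblasts and of phenotypic change in smooth muscle.

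After removal of cells with fewer than 200 genes or 200 UMIs or with more than 30% mitochondrial UMIs, 5416 ND and 2739 HFD cells remained, with 27137322 and 17191279 UMIs. A UMI stands for 1 captured RNA molecule. The median depth was 3732.5 UMIs per cell in ND and 5336 in HFD, and the median mitochondrial share was 16.8% and 21.9%, so that the HFD cells were deeper and carried more mitochondrial RNA. For reads and for transcripts per cell the study states the opposite order, with the control group higher, and the reason was not tested. The 9 genes gave 109655 UMIs in ND and 54062 in HFD, that is 0.404% and 0.314% of all UMIs. Cell types were gated on UMIs of marker genes that included no S100 gene, and 86.0% of ND cells and 73.5% of HFD cells met the gate of 1 lineage. A further 10.4% and 21.9% met more than 1 gate, are called mixed, and were left out of the gated types. The gates held 2285 ND and 1015 HFD endothelial cells, 956 and 382 fibroblasts, 333 and 456 macrophages, 272 and 25 T cells, 490 and 5 B cells, 72 and 4 neutrophils, 44 and 23 monocytes, and 25 and 23 dendritic cells. The ND library also held 47 cells with markers of the airway (club cells, led by Scgb1a1), whereas the HFD library held none, and smooth muscle cells were few, with 25 and 5 gated. Only 1 cell barcode was kept in both libraries.

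All 9 genes lie on mouse chromosome 3 within 3053.61 kb (GRCm38/mm10, GENCODE M21), in 2 groups. In the first group S100a1 (90511034 to 90514392, minus strand) is followed by S100a13 (90514435 to 90524581), S100a16 (90537254 to 90543151), S100a4 (90603771 to 90606045), S100a6 (90612882 to 90624181) and S100a8 (90668978 to 90670035), all on the plus strand, and by S100a9 (90692632 to 90695721, minus strand). In the second group S100a11 (93520488 to 93526287) precedes S100a10 (93555080 to 93564643), both on the plus strand. All are annotated as protein coding. S100a4 shares 302 exon bases on the same strand with the annotated gene Gm42674, which is listed in the files with 0 UMIs in both libraries, and none of the other members shares exon bases with another gene.

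The sequence just upstream of the genes is shown for S100a8 and S100a9, whose levels followed each other over the gated cell types, and for S100a4, S100a6 and S100a11, whose patterns differed from them although they lie on the same chromosome. The RefSeq promoter set (GRCm38.p6) had entries for 8 of the 9 genes, and only bases outside exons of GENCODE M21 are printed, read 5′ to 3′ on the strand of the gene. Capitals mark matches on either strand to 6 motifs. These were TATAAA for the TATA-binding protein, CCAAT for the NF-Y factor, TGANTCA for AP-1, TTGCNNAA for C/EBP factors, GAGGAA for the core of a PU.1 site (on the other strand it reads TTCCTC), and GGGCGG for the Sp1 family, known as the GC box.
upstream of S100a8 (chr3:90668821-90668977, plus strand): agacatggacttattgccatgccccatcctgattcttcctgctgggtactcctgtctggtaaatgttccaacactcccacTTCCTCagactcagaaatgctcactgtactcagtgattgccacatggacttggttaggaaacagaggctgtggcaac
upstream of S100a9 (chr3:90695722-90695971, minus strand): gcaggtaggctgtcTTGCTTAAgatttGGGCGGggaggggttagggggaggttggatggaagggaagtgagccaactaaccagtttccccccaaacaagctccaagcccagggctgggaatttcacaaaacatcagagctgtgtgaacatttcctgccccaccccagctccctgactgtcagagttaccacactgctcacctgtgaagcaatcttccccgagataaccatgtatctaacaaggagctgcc
upstream of S100a4 (chr3:90603670-90603769, plus strand): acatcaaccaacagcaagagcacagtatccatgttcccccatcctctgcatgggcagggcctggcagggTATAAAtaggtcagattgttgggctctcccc
upstream of S100a6 (chr3:90612782-90612881, plus strand): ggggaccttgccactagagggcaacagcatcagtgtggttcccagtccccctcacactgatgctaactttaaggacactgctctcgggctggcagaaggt
upstream of S100a11 (chr3:93520388-93520487, plus strand): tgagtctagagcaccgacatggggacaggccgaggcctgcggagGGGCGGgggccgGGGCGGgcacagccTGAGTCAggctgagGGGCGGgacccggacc
between S100a1 and S100a13 (chr3:90514393-90514434, plus strand): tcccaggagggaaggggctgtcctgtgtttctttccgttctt

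S100a8 and S100a9 are read from opposite strands. The S100a9 window held a C/EBP match and a GC box far from its start, the printed S100a8 window held a PU.1 core, and the rest of its 250 bases, which is not printed, held a TATA box from 30 to 25 bases and another PU.1 core from 36 to 31 bases before the RefSeq start. S100a4 had a TATA box from 31 to 26 bases before its RefSeq start, and S100a11 had 3 GC boxes and an AP-1 match within its last 100 bases. The 100 bases before S100a6 and the 42 bases that separate S100a1 from S100a13, which are transcribed away from each other, held no match, while farther from its start S100a6 had a CCAAT match, from 228 to 224 bases before it. Among 32851 RefSeq promoters the 250 bases before the start held a TATA box in 12.4%, a CCAAT box in 33.8%, an AP-1 match in 6.75%, a C/EBP match in 9.56%, a PU.1 core in 23.3% and a GC box in 32.7%, so matches of this kind are common. In the last 100 bases before the start the shares were 5.56% for a TATA box, 2.73% for an AP-1 match and 24.7% for a GC box. A match is a description of these letters and not a measured binding site.

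The order of the cell types was different for nearly every member. Among the gates with at least 20 cells in ND (14 gates), S100a8, S100a9, S100a6 and S100a11 were highest in neutrophils, S100a4 in monocytes, S100a1 in adipocytes, S100a10 in mesothelial cells, S100a13 in fibroblasts and S100a16 in lymphatic endothelial cells. Levels are given in CPM, the UMIs of the gene per 1000000 UMIs of the gated cells. In cells thinned to 1000 UMIs, the mean number of UMIs from all 9 genes was 125 in ND neutrophils, 5.47 in ND and 4.82 in HFD fibroblasts, 1.503 and 2.35 in endothelial cells, and 1.61 and 1.71 in macrophages. No ND neutrophil was without a UMI of any member, whereas 32.1% of ND and 19.97% of HFD capillary endothelial cells were.

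**Figure D1:**
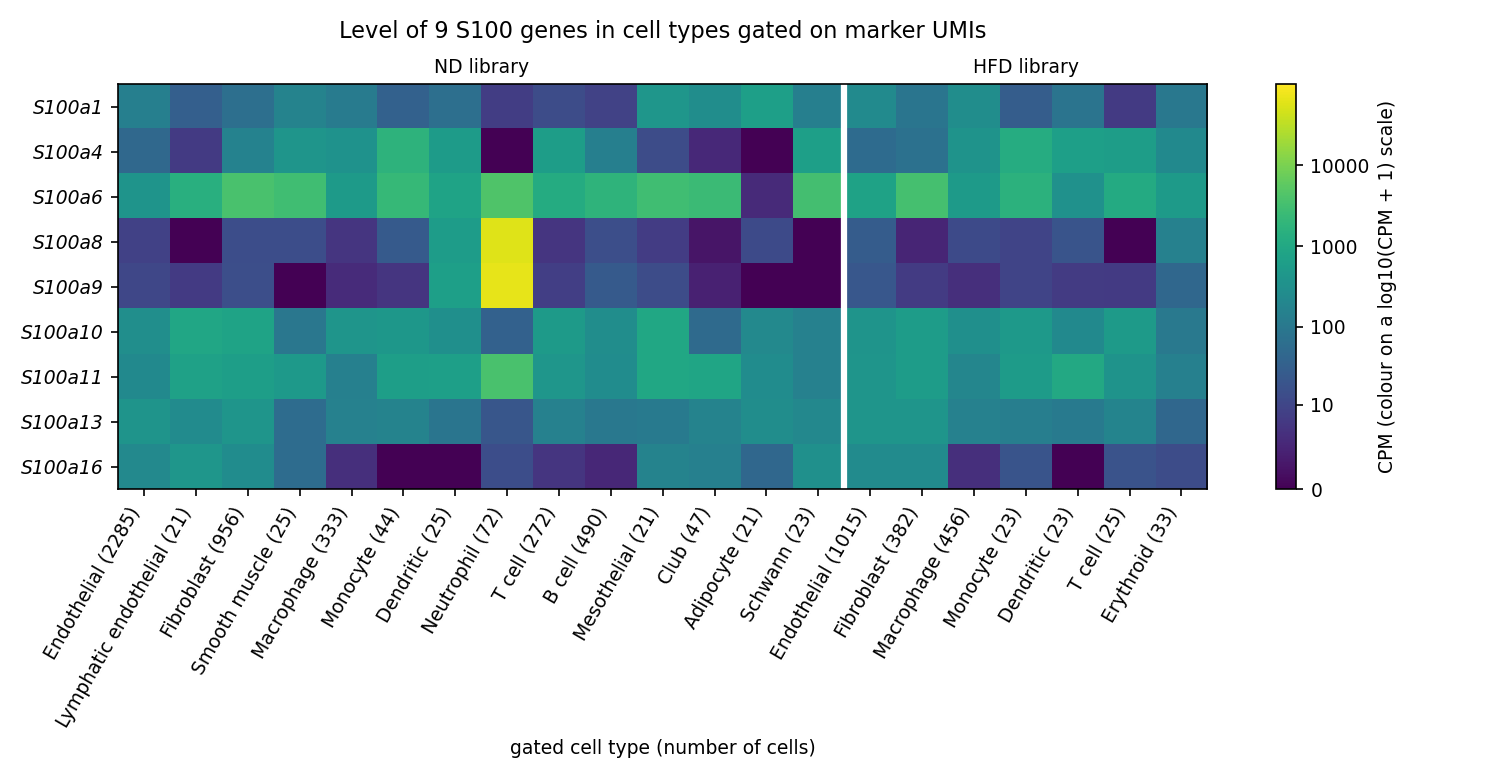
Level of the 9 genes (rows) in gated cell types with at least 20 cells (columns, number of cells in brackets), ND on the left and HFD on the right; the colour is CPM on a log10(CPM + 1) scale. S100a8 and S100a9 are bright in the 72 ND neutrophils and dark in most other columns, S100a6 is bright in ND fibroblasts at 3666 CPM and in neutrophils at 4266 CPM, and S100a16 is dark in the leukocyte columns.

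S100a8 and S100a9, the subunits of calprotectin, were the transcripts of neutrophils. S100a8 reached 57744 CPM (56497 to 59011.5) in the 72 ND neutrophils and 35520 CPM (33015 to 38165) in the 4 HFD neutrophils. S100a9 reached 64667 CPM in ND and 43149 CPM in HFD. Together they took a median share of 11.7% of all UMIs in single ND neutrophils, with a range of 0.0484% to 31.3%, and 1.19%, 2.02%, 19.4% and 25.3% in the 4 HFD cells. The wide ND range therefore held the shares of all 4 HFD cells, and the 2 HFD cells with the smaller share were those with the most UMIs, 7321 and 7311. All 4 HFD cells were deeper than any ND neutrophil, at 3127 to 7321 UMIs against 1116 to 2712, so they may not be alike in kind. The S100a8 share of the UMIs of the pair was 47.2% (46.4 to 47.9) in ND and 45.2% (42.7 to 47.6) in HFD, so the 2 transcripts stood in nearly the same ratio in both libraries. Of the 10 neutrophil markers 9 were detected in the gated ND cells, led by Retnlg at 4592 CPM, and only Camp was at 0. These markers define the gate, so finding them in its cells is no separate evidence of cell type.

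Outside the neutrophil gate both genes were scarce. S100a8 gave 8.23 CPM in ND and 27.8 CPM in HFD endothelial cells, 14.3 and 2.35 CPM in fibroblasts, and 4.96 and 12.2 CPM in macrophages. S100a9 gave 10.5 and 21.9 CPM, 15.1 and 6.46 CPM, and 3.10 and 3.75 CPM in the same gates. Several of these sums rested on 1 cell, so they are also given without the highest cell, a choice made after seeing the data. In ND dendritic cells, the gate with the next highest level at 571 CPM of S100a8 and 662 CPM of S100a9, 1 cell held 243 of the 244 UMIs of the pair, and the remaining cells were at 5.27 CPM and 0 CPM. In HFD endothelial cells 1 cell held 186 of 315 UMIs of the pair, and without the highest cell of each library the log2 ratio of HFD to ND fell from 1.76 to 1.01 (0.54 to 1.497) for S100a8 and from 1.07 to 0.26 (-0.30 to 0.81) for S100a9. In ND fibroblasts 1 cell held 83 of 111 UMIs, and without the highest cells the ratios were -1.35 (-3.76 to 0.44) and 0.86 (-0.59 to 2.27). The intervals of S100a9 in endothelial cells and of both genes in fibroblasts thus spanned 0 without these cells. In HFD macrophages no cell held more than 4 UMIs of the pair, and S100a8 made up 76.5% (62.5 to 87.2) of its 51 UMIs, a larger share than in neutrophils of either library.

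Many UMIs of the pair lay in mixed cells. The neutrophil gate alone held 47.5% of all S100a8 UMIs in ND and 22.5% in HFD, and 57.3% and 26.9% of the S100a9 UMIs. These shares depend on the cells kept, since that of S100a8 was 85.5% and 24.7% without the cells of the highest doublet scores, 12.6% and 9.29% with a mitochondrial limit of 20%, and 57.2% and 71.0% with no limit. When mixed cells that also met the neutrophil gate were added, these shares were 97.8% and 91.1% for S100a8 and 97.2% and 94.0% for S100a9. Such mixed cells numbered 22 of the 94 ND cells and 17 of the 21 HFD cells that met the neutrophil gate, and 12 and 11 of them also met the endothelial gate. Their median depth was 4485 UMIs in ND and 4432 in HFD, against 1961 in the ND neutrophils and 5263 in the 4 HFD neutrophils. The mixed cells were thus deeper than the kept neutrophils in ND but not than the 4 kept in HFD. Without the mitochondrial limit the neutrophil-gated cells had a median of 1860 UMIs in ND (133 cells) and 2041 in HFD (151 cells). Both medians were below those of the mixed cells. In ND 1 mixed cell alone held 4381 UMIs of the pair. A pair of cells in 1 droplet and free RNA around a cell cannot be told apart here.

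**Figure D2:**
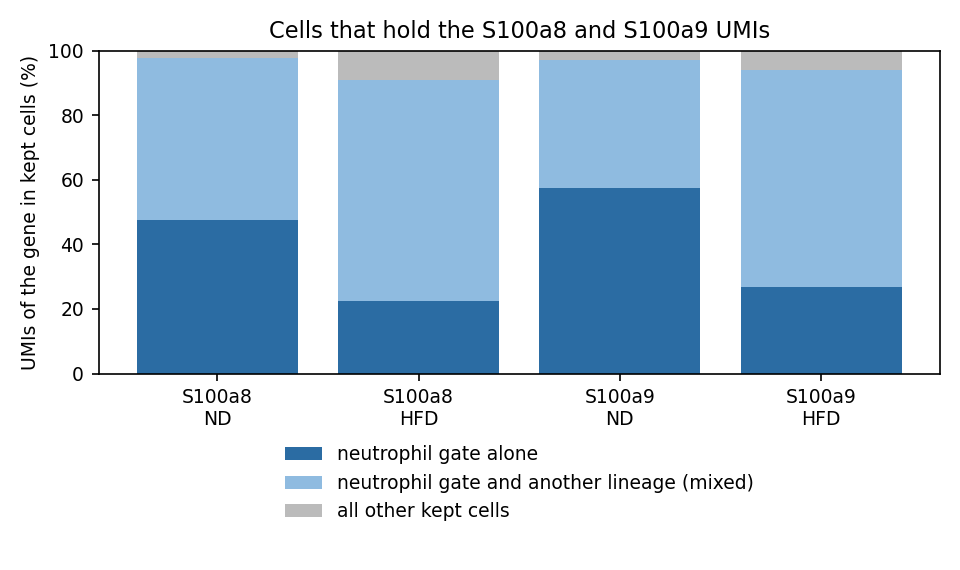
Share of all S100a8 and S100a9 UMIs of the kept cells (y axis, percent; 1 bar per gene and library) that was held by cells of the neutrophil gate alone, by cells that met the neutrophil gate and another gate, and by all other kept cells. The neutrophil gate alone held 47.5% of S100a8 in ND and 22.5% in HFD, and the grey remainder was small in all 4 bars.

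The mitochondrial limit decided how many neutrophils were seen. Without it, 133 ND and 151 HFD cells met the neutrophil gate alone, and 61 and 147 of them lay above 30% mitochondrial UMIs. In those cells above the limit S100a8 was at 37007 CPM in ND and 35518 CPM in HFD, and S100a9 at 36654 and 40750 CPM, so the levels of the 2 libraries were close. Over all kept cells S100a8 was at 632 CPM in ND and 193 CPM in HFD, and S100a9 at 587 and 196 CPM. Fewer neutrophils and less RNA per neutrophil cannot be told apart in these sums. In HFD only 4 of the 151 neutrophil-gated barcodes were kept.

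Of the receptors for the pair, Ager gave only 62 UMIs in ND and 43 in HFD over all kept cells. Tlr4 was measured in fibroblasts at 17.7 CPM in ND and 37.6 CPM in HFD (log2 ratio 1.08, 0.57 to 1.60) and in macrophages at 36.6 and 26.3 CPM (-0.48, -0.98 to 0.03). In luminal endothelial cells it was at 28.2 and 10.5 CPM (-1.43, -2.72 to -0.33).

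S100a6, also called calcyclin, is known from growing and migrating cells. Among the gates with at least 20 cells it was most abundant in neutrophils and fibroblasts of ND. In ND it reached 4266 CPM (3932 to 4621) in neutrophils, 3666 CPM (3605 to 3727) in fibroblasts, 3259 CPM in Schwann cells, 2918 CPM in smooth muscle cells, 2914 CPM in mesothelial cells, 2507 CPM in club cells, 2215 CPM in monocytes, 1821 CPM in B cells, 1396 CPM in lymphatic endothelial cells and 1187 CPM in T cells. It was lower in dendritic cells at 783 CPM, macrophages at 536 CPM and endothelial cells at 393 CPM, and 21 adipocytes gave a single UMI. Fibroblasts, Schwann cells, smooth muscle cells and mesothelial cells followed each other with overlapping intervals of neighbours. Among the HFD gates with at least 20 cells fibroblasts (3293 CPM), monocytes (1628 CPM) and T cells (1148 CPM) came first. Endothelial cells (747 CPM), macrophages (524 CPM), erythroid cells (518 CPM) and dendritic cells (333 CPM) followed in this order. The order differed from that in ND in the place of endothelial cells, now above macrophages, and of dendritic cells, now at the end. HFD mesothelial cells (19 cells) and neutrophils (4 cells, at 3624 CPM) were too few to be ranked. Fibroblasts held 39.6% of all S100a6 UMIs in ND and 29.6% in HFD, and endothelial cells held 12.4% and 24.9%.

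Several members were higher in the endothelial cells of HFD. Between HFD and ND, 5 of the 9 genes were at least 1.5-fold higher in HFD endothelial cells with a counting interval on 1 side of 1, and none was lower, whereas 5.41% of 12227 genes were higher by this rule and 11.1% lower. These were S100a1, S100a6, S100a8, S100a9 and S100a11, and the call of S100a9 was lost without the highest cells described above. The median log2 ratio was 0.76 over the 9 genes and -0.10 over all genes. S100a6 was at 393 CPM (381 to 405) in ND and 747 CPM (725 to 768) in HFD endothelial cells, a log2 ratio of 0.93 (0.87 to 0.99). S100a11 was at 233 and 398 CPM (0.77, 0.69 to 0.85) and S100a1 at 145 and 245 CPM (0.76, 0.65 to 0.86). Without the mitochondrial limit S100a6 and S100a11 were not past the rule, with log2 ratios of 0.38 and 0.30.

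Endothelial cells were then divided by marker UMIs into cells of a luminal type (Vwf, Vcam1, Cytl1; 212 ND and 84 HFD cells) and of a capillary type (Gpihbp1, Cd36, Rbp7; 1667 and 666 cells). Luminal cells had much more S100a6 than capillary cells, 15.5-fold in ND and 3.57-fold in HFD. In luminal cells the level was 1559 CPM (1499 to 1620) in ND and 1476 CPM (1391 to 1565) in HFD, a log2 ratio of -0.08 (-0.18 to 0.02). In capillary cells it was 100 CPM (93.0 to 108) in ND and 414 CPM (393 to 436) in HFD, a log2 ratio of 2.04 (1.91 to 2.18). Cells with markers of several types, 374 in ND and 254 in HFD, lay between them at 414 and 1018 CPM.

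The difference in capillary cells was seen in the number of cells as well as in the sum. After every cell was thinned to 1000 UMIs, 7.77% (6.52 to 9.16) of ND and 21.5% (18.4 to 24.8) of HFD capillary cells had an S100a6 UMI, and 1.57% and 11.3% had 2 or more. Before thinning the shares were 20.2% and 45.3%. In cell types with little S100a6, a UMI after thinning was found in 0 of 21 ND and 2 of 9 HFD adipocytes and in 1 of 5 ND and 2 of 33 HFD erythroid cells. The HFD adipocyte share, 22.2% (2.81 to 60.01) on 9 cells, was as high as that of HFD capillary cells, and HFD erythroid cells stood at 518 CPM, with 48 of 78 UMIs in 1 cell, so the background of HFD is known only within wide limits. In luminal cells 63.6% and 60.7% had one. Leaving out every capillary cell with a UMI of Vwf, Vcam1 or Cytl1 left 1537 and 626 cells at 89.2 and 408 CPM, a log2 ratio of 2.19 (2.05 to 2.34), and leaving out the highest cell of each library gave 2.09 (1.95 to 2.23).

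**Figure D3:**
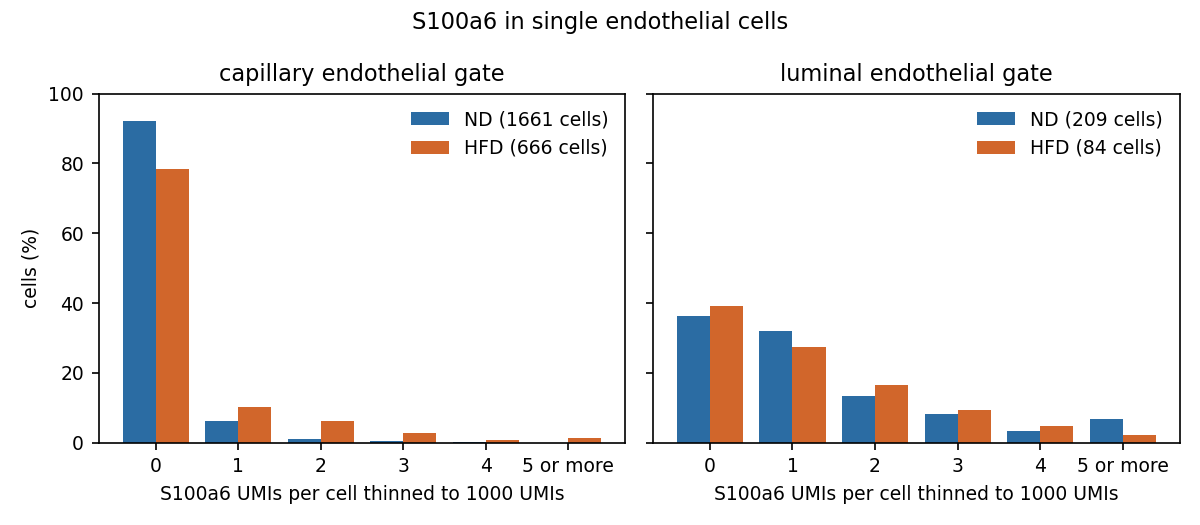
Share of cells (y axis, percent) by the number of S100a6 UMIs in cells thinned to 1000 UMIs (x axis), for the capillary gate (left) and the luminal gate (right), ND in blue and HFD in orange. In the capillary gate 7.77% of ND and 21.5% of HFD cells had at least 1 UMI, whereas 63.6% and 60.7% did in the luminal gate.

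The size of this difference depended on the mitochondrial share of the cells, which was higher in HFD (median of 23.9% against 19.5% in ND capillary cells). In capillary cells with up to 20% mitochondrial UMIs S100a6 was at 97.1 CPM in 891 ND and 438 CPM in 166 HFD cells (log2 ratio 2.17), and from 20% to 30% at 108 and 402 CPM (1.89). Above the limit of 30%, where 722 ND and 3540 HFD cells lay, the levels were 125 and 243 CPM (0.97, 0.72 to 1.22). The HFD level was higher in each band. In luminal cells the band up to 20% gave a log2 ratio of -0.16 and the small band from 20% to 30%, with 35 and 25 cells, gave 1.15 (0.76 to 1.55).

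Markers of other cell types in the capillary gate moved as follows. The 8 fibroblast markers, all detected, summed to 85.4 CPM in ND and 59.7 CPM in HFD, led by Dcn at 24.1 and 25.0 CPM. The 6 pericyte markers, all detected, summed to 125 and 230 CPM, led by Rgs5 at 116 and 205 CPM, and pericytes had S100a6 at 2437 CPM in 8 ND cells and 1134 CPM in 6 HFD cells. The 6 monocyte markers, all detected, summed to 26.9 and 69.1 CPM, led by Fn1, which the monocyte gate left out. The 5 haemoglobin and erythroid markers summed to 159 and 697 CPM, led by Hbb-bs. The 6 adipocyte markers summed to 90.6 and 164 CPM, led by Cfd in ND and by Ucp1 in HFD. Neutrophil markers summed to 19.7 and 11.1 CPM. Over all endothelial cells the 5 club cell markers summed to 242 CPM in ND and 0.158 CPM in HFD, and ND club cells had S100a6 at 2507 CPM. The part of pericyte, monocyte, erythroid, adipocyte and club cell RNA in the S100a6 difference was not tested.

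Of all 9 genes in capillary cells, 4 were higher in HFD by the rule (S100a1, S100a4, S100a6 and S100a11) and 1 was lower (S100a9, 95 ND and 23 HFD UMIs, of which 46 and 4 lay in 1 cell each, and whose ratio of -1.14 was not past the rule in 4 of 11 alternatives and turned to 0.15 with stricter gates and 0.060 after thinning), where 6.78% of 10848 genes were higher and 12.4% lower, and the median log2 ratio of the members was 0.42 against -0.10 over all genes. Without the mitochondrial limit S100a4 and S100a11 were not past the rule in these cells, with log2 ratios of 0.30 and 0.48. In luminal cells none of the 7 members with enough UMIs was past the rule in either direction, where 13.2% of 8817 genes were (6.22% higher and 7.01% lower). S100a11 came nearest there, at 534 and 776 CPM (0.54, 0.38 to 0.69).

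**Figure D4:**
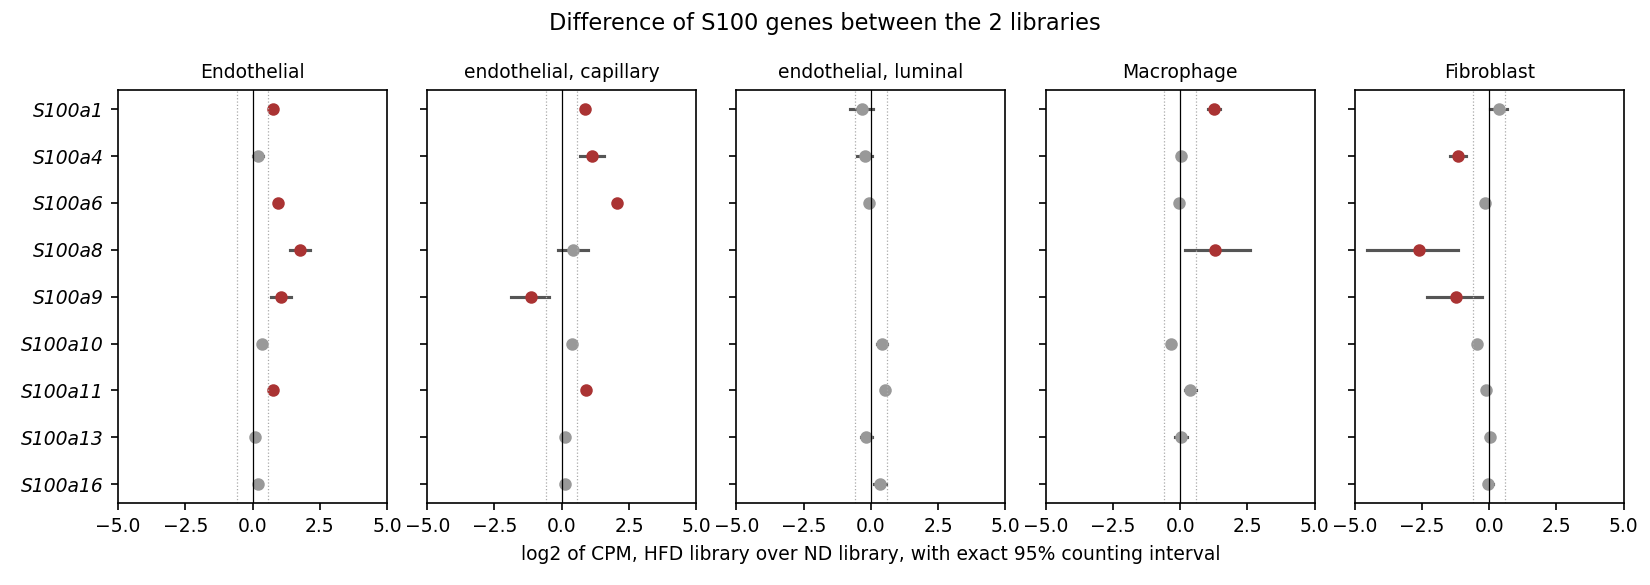
Log2 ratio of the CPM in HFD to that in ND (x axis) with its exact 95% counting interval for members (rows) with at least 20 UMIs over both libraries, in 5 gates; red points are past the rule of at least 1.5-fold (dotted lines) with an interval on 1 side of 0. S100a6 stands at 2.04 in capillary and at -0.08 in luminal endothelial cells.

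S100a10 and S100a11 are known for binding annexins, S100a10 as the partner of annexin A2 (Anxa2) in a complex that Ahnak also joins, and S100a11 as a partner of annexin A1 (Anxa1). S100a10 was highest in ND in mesothelial cells at 954 CPM and lymphatic endothelial cells at 929 CPM, 2 neighbours with overlapping intervals. The 19 HFD mesothelial cells, too few to be ranked, were at 1079 CPM. It was at 796 and 577 CPM in fibroblasts, 532 and 535 CPM in T cells, 440 and 482 CPM in monocytes, 400 and 314 CPM in macrophages and 298 and 382 CPM in endothelial cells. The 72 ND neutrophils gave only 5 UMIs of S100a10, or 35.4 CPM. By contrast S100a11 reached 3727 CPM in ND and 2765 CPM in HFD neutrophils. Mesothelial cells at 940 CPM and club cells at 883 CPM came next in ND, and HFD mesothelial cells were at 1060 CPM. In dendritic cells S100a11 was at 672 and 1044 CPM (0.64, 0.30 to 0.98), the only member past the rule in the direction of HFD there.

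In endothelial cells Anxa2 was also higher in HFD, at 222 CPM in ND and 485 CPM in HFD (log2 ratio 1.13, 1.05 to 1.20), and Ahnak was at 533 and 814 CPM (0.61, 0.56 to 0.66). Both were among a list of 18 partners and receptors, of which 13 had enough UMIs in endothelial cells, and 2 were higher and 1 lower by the rule, where 5.41% of all genes were higher and 11.1% lower. The lower one was Cacybp, which encodes the calcyclin-binding protein that S100a6 takes hold of, at 58.0 and 30.6 CPM (-0.92, -1.16 to -0.69). In capillary cells 4 of 13 were higher, namely Anxa1, Anxa2, Anxa5 and Ahnak, and 2 lower, Cacybp and Myh9, the heavy chain of non-muscle myosin that S100a4 binds, where 6.78% of all genes were higher and 12.4% lower. Anxa2 was at 155 and 463 CPM (1.58, 1.47 to 1.69), Ahnak at 480 and 863 CPM (0.84, 0.77 to 0.92), Cacybp at 60.1 and 23.1 CPM (-1.38, -1.74 to -1.04) and Myh9 at 605 and 391 CPM (-0.63, -0.72 to -0.54). In luminal cells Anxa2 was at 487 and 580 CPM (0.25) and Ahnak at 688 and 608 CPM (-0.18), and Tlr4 was the 1 gene of 12 past the rule, where 13.2% of all genes were. S100a10 itself was at 266 CPM in ND and 343 CPM in HFD capillary cells (0.37, 0.26 to 0.47), so its ratio was smaller than that of Anxa2.

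S100a4, known as fibroblast-specific protein 1 but also abundant in leukocytes, was not led by fibroblasts here. Monocytes had 1711 CPM (1535 to 1901) in ND and 1233 CPM (1029 to 1466) in HFD, followed in ND by Schwann cells at 655 CPM, T cells at 602 CPM and dendritic cells at 566 CPM, which overlapped. Macrophages were at 353 and 361 CPM, fibroblasts at 164 and 73.4 CPM and endothelial cells at 47.7 and 55.0 CPM. None of the 72 ND neutrophils had an S100a4 UMI, which allows up to 21.3 CPM when 3 UMIs are taken as the limit of a count of 0, and no adipocyte had one either. In HFD neutrophils 1 of 4 cells held all 7 UMIs. The S100a4 and S100a6 genes lie next to each other among the 9 members, with S100a5 between them, and neutrophils were at the top of the order of S100a6 and at the bottom of that of S100a4.

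In fibroblasts S100a4 was lower in HFD, a log2 ratio of HFD to ND of -1.16 (-1.45 to -0.88), with a UMI in 19.9% of 956 ND and 12.0% of 382 HFD cells. Without the highest cell of each library the ratio was -1.27 (-1.58 to -0.98). By the rule 3 of the 9 genes were lower in HFD fibroblasts (S100a4, S100a8 and S100a9) and none higher, where 12.4% of 10636 genes were lower and 3.98% higher. Without the highest cell of each library the intervals of S100a8 and S100a9 spanned 0, as given above, which leaves S100a4. That is 1 of the 9 genes, near the share of 12.4% over all genes, so the count sets the members apart from other genes in no way. The median log2 ratio of the 9 genes was -0.15, against -0.18 over all genes. S100a4 was at 88.9 and 64.0 CPM in fibroblasts with Pi16, Dpp4 and Sema3c (-0.47, -0.92 to -0.05), at 136 and 51.6 CPM in those with Inmt and Gdf10 (-1.40, -2.79 to -0.25), and at 278 and 133 CPM in those in no sub-gate (-1.06, -1.52 to -0.63). The 3 intervals overlap, and the difference between the sub-gates was not tested. The ratio of -0.47 in the Pi16 type was not past the rule. Over 9 alternatives it ran from -0.65 to 0.12 and was past the rule in 1. The Pi16 type made up 339 of 956 ND and 205 of 382 HFD fibroblasts. The listed monocyte markers summed to 2365 and 3815 CPM in fibroblasts. Most of this was Fn1, which the monocyte gate left out and which the study gives as a matrix fibroblast gene. The sum is therefore not a measure of monocyte RNA here. The smooth muscle markers, led by Acta2, summed to 104 and 30.5 CPM. The erythroid markers summed to 122 and 547 CPM and the club cell markers to 227 and 0.587 CPM. The fibroblast markers themselves summed to 26750 and 19182 CPM. The part of these differences in that of S100a4 was not tested.

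Within endothelium S100a4 followed S100a6. Luminal cells had 219 CPM in ND and 186 CPM in HFD, and capillary cells 12.2 and 26.4 CPM, so that luminal cells were 18.0-fold higher in ND and 7.06-fold in HFD. The capillary log2 ratio was 1.12 (0.67 to 1.56), but only 1.26% of ND and 3.75% of HFD capillary cells had a UMI. In macrophages with neither foam-type nor resident markers, 83 in ND and 66 in HFD, S100a4 was at 302 and 1000 CPM (1.73, 1.42 to 2.05) and S100a6 at 558 and 1369 CPM (1.29, 1.06 to 1.54). In these cells the 6 monocyte markers summed to 635 CPM in ND, led by Ccr2, and to 2474 CPM in HFD. The HFD sum was led by Fn1 at 1706 CPM, a gene that the monocyte gate left out. The part of these markers in the difference was not tested.

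Fibroblast sub-types differed in S100a6 and S100a10. S100a6 was at 4973 and 3948 CPM in the Pi16 type, 2876 and 2550 CPM in the Inmt type, and 1866 and 1792 CPM in the Fmod type (68 and 6 cells). S100a10 was at 1134 and 735 CPM in the Pi16 type (-0.63, -0.75 to -0.50) and at 568 and 324 CPM in the Inmt type (-0.81, -1.31 to -0.33). The Pi16 type thus stood highest of the 3 types for both genes in both libraries. The S100a10 difference in the Pi16 type was not past the rule among cells with up to 20% mitochondrial UMIs, with a log2 ratio of -0.26, nor with scaling by the median of ratios (-0.48) or without mitochondrial, haemoglobin and ribosomal genes (-0.44). In the Pi16 type 3 of 9 genes were lower in HFD (S100a8, S100a9 and S100a10) and none higher, where 9.24% of 8990 genes were lower and 3.13% higher. S100a1, at a log2 ratio of 0.49, was past the rule as higher in 4 of 10 alternatives. S100a8 and S100a9 again rested on 1 ND cell, with 37 of 44 and 46 of 51 UMIs. Without the highest cell of each library their ratios were -2.12 (-7.62 to 0.84) and 0.36 (-1.97 to 2.58). This leaves S100a10 as 1 of the 9 genes, near the share of 9.24% over all genes.

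**Figure D5:**
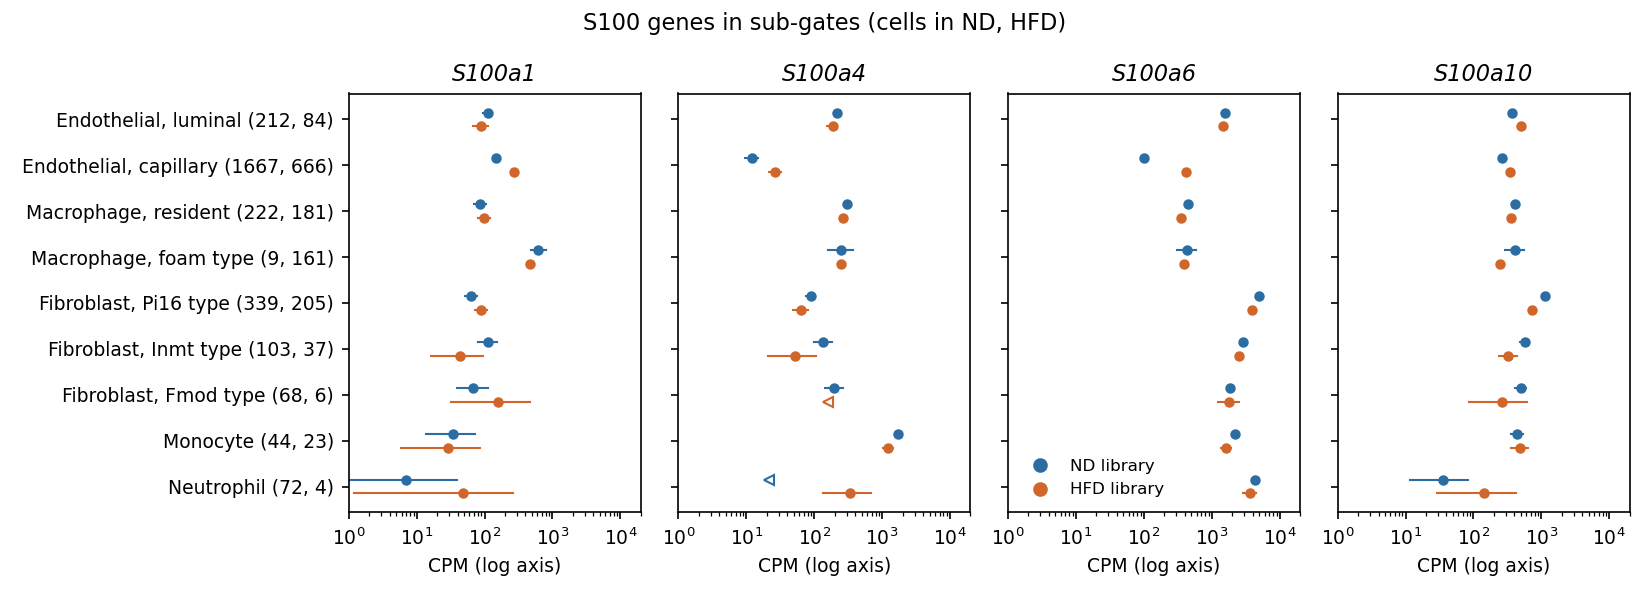
CPM on a log axis (x) of S100a1, S100a4, S100a6 and S100a10 in sub-gates of endothelial cells, macrophages and fibroblasts and in monocytes and neutrophils (number of ND and HFD cells in brackets), ND in blue and HFD in orange, bars being exact 95% counting intervals and open triangles the upper limit of a count of 0. S100a1 is highest in foam-type macrophages, at 622 and 475 CPM, but the ND point rests on 1 cell and is 117 CPM without it, below the 149 CPM of ND capillary cells; S100a6 in ND capillary cells stands at 100 CPM, apart from the other S100a6 points.

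S100a1, best known from striated muscle where it acts on the calcium release channel and the calcium pump of the reticulum, was found in several cell types here. The cardiomyocyte gate was met only by mixed cells, 28 in ND and 11 in HFD, in which S100a1 was at 175 and 299 CPM. Among the gated types of ND it was highest in adipocytes at 666 CPM (582 to 760), with a UMI in all 21 cells. Mesothelial cells at 430 CPM and club cells at 284 CPM followed. Of the HFD gates with at least 20 cells macrophages came first, at 280 CPM. The 9 HFD adipocytes at 808 CPM (643 to 1003) and the 19 HFD mesothelial cells at 255 CPM were too few to be ranked. Adipocytes of ND were thus highest for S100a1 and lowest for S100a6. Endothelial cells had 145 and 245 CPM, fibroblasts 67.2 and 85.7 CPM, and T cells, B cells and neutrophils of ND had 13.8, 8.68 and 7.09 CPM. In capillary cells S100a1 was at 149 and 274 CPM (0.88, 0.75 to 1.01) and in luminal cells at 111 and 87.9 CPM (-0.34, -0.76 to 0.08). Adipocyte markers were also higher in the HFD capillary gate, as given above, and their part in the S100a1 difference was not tested.

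In macrophages S100a1 was at 118 CPM (102 to 136) in ND and 280 CPM (262 to 299) in HFD, a log2 ratio of 1.25 (1.02 to 1.48), and 1.55 (1.28 to 1.82) without the highest cell of each library. With S100a8 it was 1 of 2 members of 7 that were higher in HFD, where 7.21% of 9252 genes were higher and 14% lower. The S100a8 call, on 8 ND and 39 HFD UMIs, was lost with stricter gates (log2 ratio 0.63) and with equal weight of cells (0.32), and too few UMIs were left after thinning. With stricter gates S100a9 was past the rule in its place. In the macrophage gate the erythroid markers summed to 109 CPM in ND and 448 CPM in HFD. The club cell markers summed to 235 and 0.938 CPM. The fibroblast markers summed to 169 and 73.4 CPM and the neutrophil markers to 248 and 85.6 CPM. Their part in the S100a1 difference was not tested. The mix of macrophages differed between the libraries, since foam-type cells (Trem2, Gpnmb, Spp1, Fabp5) were 9 of 333 in ND and 161 of 456 in HFD, and resident cells (Lyve1, Folr2, F13a1, Cbr2) were 222 and 181. Foam-type cells had 622 CPM of S100a1 in ND and 475 CPM in HFD, resident cells 86.0 and 97.6 CPM, so that foam-type cells were 7.24-fold higher in ND and 4.86-fold in HFD. Within resident cells the log2 ratio of HFD to ND was 0.18 (-0.25 to 0.62), and none of 6 members was past the rule, where 11.4% of 7249 genes were in either direction (3.28% higher and 8.1% lower). S100a4 and S100a6 were each past it as lower in 1 of 10 alternatives, and their lowest log2 ratios were -1.18 and -0.86.

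The foam-type level of ND rested on 1 cell with 54 of 62 UMIs, and the other 8 cells gave 117 CPM. In HFD 99 of the 161 foam-type cells had an S100a1 UMI, the highest cell held 98 of 738, and the level without it was 419 CPM. After thinning to 1000 UMIs 19.9% (14.01 to 26.9) of HFD foam-type cells and 8.84% (5.14 to 13.96) of HFD resident cells had a UMI. S100a11 was also higher in foam-type cells, at 462 and 234 CPM against 92.9 and 92.4 CPM in resident cells, and 1 cell held 28 of its 46 ND UMIs. Without the highest cells the foam-type levels of S100a11 were 264 and 220.1 CPM and the resident levels 88.5 and 88.1 CPM. By contrast S100a4 and S100a6 in HFD foam-type cells, at 249 and 394 CPM, were close to the 269 and 350 CPM of resident cells. Of the 18 partners and receptors, 14 had enough UMIs in macrophages. Anxa1 (86.9 and 170 CPM), Anxa2 (246 and 408 CPM) and Il1a (15.5 and 28.8 CPM), which encodes interleukin-1 alpha, were higher in HFD, and Cd33 (127 and 57.8 CPM), a receptor that binds S100a9 in man, was lower, where 7.21% of all genes were higher and 14% lower.

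S100a13, which takes part in the release of Fgf1 and interleukin-1 alpha without a signal peptide, was highest in fibroblasts and endothelial cells, and S100a16 was scarce in leukocytes. S100a13 was nearly equal in fibroblasts (398 and 402 CPM) and endothelial cells (388 and 409 CPM), lower in monocytes (173 and 135 CPM), T cells (156 and 178 CPM) and macrophages (153 and 155 CPM), and at 21.3 CPM in ND neutrophils. Monocytes, T cells and macrophages of ND were thus above smooth muscle cells (57.9 CPM) in S100a13. They were also above mesothelial cells (113 CPM), but the mesothelial interval of 65.6 to 180 overlapped theirs. S100a16 was at 430 CPM in lymphatic endothelial cells and 319 CPM in Schwann cells of ND, 266 and 259 CPM in fibroblasts, and 228 and 262 CPM in endothelial cells. It was at 3.72 and 3.75 CPM in macrophages, and dendritic cells had no UMI in either library, which allows up to 15.2 CPM in ND and 19.2 CPM in HFD by the same limit of 3 UMIs. Fibroblasts and endothelial cells therefore had S100a13 and S100a16 at levels that differed little between the libraries, with log2 ratios of 0.01 and -0.04 in fibroblasts and 0.07 and 0.20 in endothelial cells. In luminal cells S100a16 was at 310 and 391 CPM and in capillary cells at 198 and 214 CPM.

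In monocytes none of 5 members was past the rule in either direction, where 9.97% of 1955 genes were (2.51% higher and 7.47% lower). In T cells none of 5 was, where 22% of 5123 genes were (13.6% higher and 8.35% lower). In dendritic cells S100a11 was higher and S100a6, S100a8 and S100a9 lower of 8 members, where 5.21% of 1996 genes were higher and 8.42% lower. The S100a8 and S100a9 calls rest on the 1 ND cell described above, and without the highest cell of each library the S100a8 ratio was 0.35 (-5.94 to 6.65) and S100a9 was at 0 in both. S100a6 was at 783 CPM (664 to 916) in 25 ND and 333 CPM (249 to 437) in 23 HFD dendritic cells, a log2 ratio of -1.23 (-1.72 to -0.77), and 18 of 25 and 17 of 23 cells had a UMI. B cells, with 490 in ND and 5 in HFD, allowed no such comparison.

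Other genes of the family were scarce. S100b, a marker of glia, gave 166 UMIs in ND and 53 in HFD, and 47 of the ND UMIs lay in 23 Schwann cells, at 833 CPM. S100a14 gave 77 and 13 UMIs, of which 54 lay in ND club cells. S100a7a gave 22 and 15 UMIs, S100a3 gave 9 and 12, S100g 5 and 2, and S100a2, S100a5 and S100z had none in either library.

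The likeness of patterns was measured as Pearson's r of log2(CPM + 10) over the 21 groups of gate and library with at least 20 cells, among 10791 genes with at least 200 UMIs. The groups share libraries and differ in depth, so r is given as a description. S100a8 was most like S100a9 (r = 0.97), then like Acod1 (0.93), the enzyme that makes itaconate, and Wfdc21 (0.90), and S100a9 like S100a8, Acod1 and Retnlg (0.91), a gate marker. Of the groups used, only ND neutrophils had much of either gene. ND dendritic cells came next, where nearly all UMIs lay in 1 cell. The r values of S100a8 and S100a9 therefore rest mostly on these groups. S100a16 came next in closeness, with Npdc1 (0.95), Cttn (0.94) and Nfib (0.94). S100a13 was most like Btbd2 (0.88), S100a10 like Ptp4a2 (0.85), S100a1 like Slc48a1 (0.83), S100a4 like Dock10 (0.82), S100a11 like Smim3 (0.75) and S100a6 like Anxa1 (0.67). S100a6 therefore had the loosest match of the 9.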

How the data were processed

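The authors processed the reads of each library with Cell Ranger (the matrix header names software version 3.0.1; genome mm10 per the labels) and deposited raw UMI counts per gene and barcode for each library; the submitters' processing notes also name bcl2fastq, UMI-tools, Seurat 3.2.0 and R 4.0.0. The deposited counts were used as they are, and the merged files of both libraries were not used. Of 10234 ND and 14225 HFD barcodes, the filter stated by the study (at least 200 genes, at most 30% mitochondrial UMIs; at least 200 UMIs) left 5416 and 2739 cells, the numbers the study states. Totals of 27137322 and 17191279 UMIs set the precision, and PCR copies were merged by UMI.

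Cells were gated on marker UMIs: at least 3 markers (2 for monocytes, without Fn1 and Vcan), at least 4 UMIs and a minimum share of the cell's UMIs for each gate. Cells that met the gates of more than 1 lineage were left out as mixed. Sub-gates needed a UMI of at least 2 of their markers. UMIs were summed per gate and library and scaled to CPM, with exact Poisson intervals; shares have exact Clopper-Pearson intervals and ratios an exact conditional binomial interval. A count of 0 allows 3 counts. No doublets were removed in the main analysis. Over all genes the rule of size was at least 1.5-fold, an interval on 1 side of 1 and at least 20 UMIs over both libraries. No test was made, as each diet has 1 library. The named genes were the 9 members, the other S100 genes, a list of 18 partners and receptors, and for each member the genes with the most similar pattern; S100a10 has no promoter shown. The members and lists were chosen with earlier results of these data known. Interval code was tested on simulated data. Alternatives covered the mitochondrial limit, a minimum of 500 genes, doublet scores (Scrublet in scanpy 1.11.5), stricter gates, thinning to 1000 UMIs, scaling and equal weight of cells. Calculations used Python 3.11.15, numpy 2.4.6, scipy 1.17.1 and pandas 2.3.3. Positions come from GENCODE M21 and upstream sequences from RefSeq (GRCm38.p6).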

Additional observations from a re-analysis of the deposited data

Results flagged for a closer look

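Some members moved in opposite directions between HFD and ND in different gates, each past the rule of at least 1.5-fold; the differences between the gates were not tested. For S100a6 the log2 ratio was 0.9263 in endothelial cells and -1.234 in dendritic cells, of which there were 25 in ND and 23 in HFD. For S100a8 it was 1.756 in endothelial cells and 1.296 in macrophages, and -2.605 in fibroblasts and -4.893 in dendritic cells. For S100a9 it was 1.065 in endothelial cells, -1.224 in fibroblasts and -6.691 in dendritic cells. All of the S100a8 and S100a9 levels behind these ratios were below 30 CPM except in ND dendritic cells, where 1 cell held 243 of 244 UMIs of the pair. Without the highest cell of each library the S100a8 ratio was 1.01 (0.54 to 1.497) in endothelial cells, 1.33 (0.14 to 2.75) in macrophages, -1.35 (-3.76 to 0.44) in fibroblasts and 0.35 (-5.94 to 6.65) in dendritic cells, and the S100a9 ratio was 0.26 (-0.30 to 0.81) in endothelial cells and 0.86 (-0.59 to 2.27) in fibroblasts. The S100a6 ratio without those cells was 0.92 in endothelial and -1.22 (-1.76 to -0.71) in dendritic cells.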

How the results depend on the processing

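No paired analysis was possible because each diet has 1 library, and no replicate could be left out. Of the alternatives, those that changed the mitochondrial limit moved most results. The number of members that kept the gate where they were highest was 6 to 9 of 9 except with a limit of 20%, where it was 3. The neutrophil gate then held 9 ND cells and was not ranked, which takes S100a6, S100a8, S100a9 and S100a11 from it, and S100a1 and S100a10 changed gate as well. The number of members higher in HFD endothelial cells was 5 and became 3 without a limit. Over 10 alternatives the S100a4 log2 ratio in these cells ran from -0.57 to 0.63 and was past the rule in 1. S100a9 was past it in 9 of 10. The 2 members higher in macrophages became 1 after thinning before gating and 1 with equal weight of cells. With stricter gates the count stayed at 2, since S100a9 took the place of S100a8. The neutrophil gate held 47.5% and 22.5% of S100a8 UMIs in ND and HFD and 57.3% and 26.9% of S100a9 UMIs. With a limit of 20% these 4 shares were 12.6%, 9.29%, 18.7% and 13.5%, and with no limit 57.2%, 71.0%, 65.2% and 73.9%. Leaving out the cells with the highest 6% of doublet scores (340 ND and 192 HFD cells) gave 85.5%, 24.7%, 86.6% and 29.8%, and thinning before gating gave 80.4%, 29.1%, 82.7% and 32.6%. When haemoglobin did not make a cell mixed, an alternative chosen after seeing the data, the HFD shares were 24.3% and 29.2%, and when mixed neutrophils were counted, also chosen after seeing the data, the shares were 97.8%, 91.1%, 97.2% and 94.0%. The log2 ratio of S100a9 in capillary cells was -1.14 and turned to 0.15 with stricter gates and 0.060 after thinning; the cause was not tested. The S100a6 ratio in capillary cells stayed between 1.504 and 2.19 in these alternatives, and that of S100a1 in macrophages between 1.03 and 1.54. Without the highest cell of each library the S100a1 ratio in macrophages was 1.55. Scaling by the median of ratios shifts all log2 ratios by 0.14 in fibroblasts and 0.13 in macrophages, the median over the 9401 and 8391 genes used for the scaling being -0.14 and -0.13, and in T cells that median was 0.38. Depth limits the gates of under 30 cells, where intervals are wide.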
